A study of Homo sapiens with 12 samples.

Results

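The genes for 10 secreted immune regulators, the colony-stimulating factors CSF1, CSF2 and CSF3, the interleukins IL1A, IL1B, IL6 and IL18, the interleukin-1 receptor antagonist IL1RN, leukemia inhibitory factor (LIF) and tumor necrosis factor (TNF), were followed in pancreatic cancer cells that overexpressed a p63 protein. These 10 genes, of 39099 in the data, were a named list and were not picked by a cutoff on expression. The study compared TAp63 and deltaNp63, the long and the N-terminally shortened forms made from TP63, with mock cells in 2 established lines of human pancreatic cancer, AsPC-1 and PANC-1 (ASPC1, PANC1 and deltaNP63 in the submitters' spelling). Each of the 6 groups, AsPC-1 mock, AsPC-1 TAp63, AsPC-1 deltaNp63, PANC-1 mock, PANC-1 TAp63 and PANC-1 deltaNp63, had 2 libraries called biological replicates, and no other allele or agent is named. What the mock cells received, how the constructs were delivered, and whether a group was a clone or a pool are not given in the sources used here. Whether replicates came from separate cultures is not given either, so the p-values measure the spread between these libraries, which may be technical.

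Transcripts were measured by poly(A) RNA-seq, as TPM, a relative abundance scaled for transcript length, so levels of different genes can be compared. TPM keeps no read depth, and the depth of each library is unknown. Values summed to genes were compared as log2(TPM + 1) with limma, and an adjusted p under 0.05 over 14767 tested genes was called a change. Fold changes on this scale understate the change of genes near or below 1 TPM. Of the members, 9 reached 1 TPM in at least 2 libraries and were tested. IL6 did not, and its levels are described only.

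The overexpressed gene, TP63, was higher in every library with a construct than in any mock library. TP63 was 1.10 and 0.817 TPM in AsPC-1 mock, 102 and 170 with TAp63, and 245 and 350 with deltaNp63. In PANC-1 it was 0.119 and 0.0245 TPM in mock, 324 and 342 with TAp63, and 815 and 1187 with deltaNp63. These sums do not separate the 2 forms, so they do not show which form a library carried. TP63 was higher in both deltaNp63 libraries than in both TAp63 libraries of each line, and dose and form cannot be told apart. The epithelial markers were mixed in PANC-1. EPCAM was 1256 to 1410 TPM in AsPC-1 and 42.6 to 49.5 TPM in PANC-1, and KRT19 was 1908 to 2681 and 707 to 756 TPM. KRT8 was 2034 to 3738 and 1566 to 1762 TPM, KRT18 1682 to 2798 and 1147 to 1332, and KRT7 9.24 to 13.1 and 13.7 to 17.5. CDH1 was 81.8 to 123 TPM in AsPC-1 but only 2.37 to 3.74 TPM in PANC-1. Of these markers, 5 of 6 were lower in PANC-1 mock than in AsPC-1 mock. The defining leukocyte genes were at or near 0: PTPRC at most 0.0102, CD3E at most 0.0552, MS4A1 at most 0.0153 and CD14 at most 0.490 TPM. The leukocyte list as a whole, 7 genes of which 3 were tested, summed to 199 to 245 TPM in AsPC-1 and 255 to 289 TPM in PANC-1, nearly all from CD68 and LYZ. The fibroblast and vessel list summed to 178 to 289 TPM in AsPC-1, led by LUM, and 81.9 to 112 TPM in PANC-1, led by COL1A1, and VWF was at most 0.278 TPM. With constructs, no epithelial or fibroblast and vessel marker passed the test in either line. In bulk RNA, fewer expressing cells and less RNA per cell cannot be told apart.

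As background, CSF1, CSF2 and CSF3 drive the growth and survival of macrophages, of granulocytes with macrophages, and of neutrophils. IL-1 alpha and IL-1 beta signal through the same receptor, which the IL1RN product occupies without signaling, and IL-18 is a related cytokine that, like IL-1 beta, is made as an inactive precursor. LIF and IL-6 act through receptors that share the chain gp130 and the JAK-STAT3 pathway, and TNF acts through 2 receptors toward NF-kappaB. In pancreatic cancer these factors are studied as signals from tumor cells to macrophages, neutrophils and fibroblasts.

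Sequences upstream of the IL-1 genes are shown because this cluster on chromosome 2 holds the member that differed most between the lines, IL1A, and 1 of the 2 that fell with a construct, IL1B. IL1A (ENSG00000115008, chr2:112773925-112784493) and IL1B (ENSG00000125538, chr2:112829751-112836816) lie on the minus strand, and IL1RN (ENSG00000136689, chr2:113099315-113134016) lies on the plus strand. Of the 10 members, 6 had a promoter entry in RefSeq (GRCh38.p14). Each sequence runs 5′ to 3′ toward a RefSeq start and stops where a GENCODE transcript begins, and capitals mark a motif match. For IL1RN, the first sequence lies before the upstream starts that give intracellular forms, and the second before the start of IL1RN-205, the transcript of the secreted form.
IL1A, chr2:112784494-112784743, minus strand: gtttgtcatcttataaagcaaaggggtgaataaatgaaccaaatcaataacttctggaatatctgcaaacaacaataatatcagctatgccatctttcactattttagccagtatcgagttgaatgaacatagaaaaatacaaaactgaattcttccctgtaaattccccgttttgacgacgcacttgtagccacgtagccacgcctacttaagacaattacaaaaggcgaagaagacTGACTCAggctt
IL1B, chr2:112836817-112837029, minus strand: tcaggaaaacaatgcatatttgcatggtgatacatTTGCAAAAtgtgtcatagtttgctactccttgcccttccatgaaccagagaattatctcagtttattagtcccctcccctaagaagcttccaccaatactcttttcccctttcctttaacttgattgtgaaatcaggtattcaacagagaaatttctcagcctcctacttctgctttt
IL1RN upstream, chr2:113117721-113117892, plus strand: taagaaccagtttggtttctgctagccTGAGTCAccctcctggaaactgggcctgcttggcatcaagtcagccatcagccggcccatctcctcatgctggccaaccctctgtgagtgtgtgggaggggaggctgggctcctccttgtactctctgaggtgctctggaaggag
IL1RN secreted form, chr2:113127348-113127575, plus strand: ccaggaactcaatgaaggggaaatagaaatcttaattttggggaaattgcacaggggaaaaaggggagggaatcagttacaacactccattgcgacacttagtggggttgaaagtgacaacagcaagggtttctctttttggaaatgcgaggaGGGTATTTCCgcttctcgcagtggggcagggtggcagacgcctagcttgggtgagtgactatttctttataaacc

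Positions are counted from the RefSeq start, which is 112784493 for IL1A, 112836779 for IL1B, 113117971 for upstream IL1RN and 113127598 for the secreted form. The capitals in IL1A are an AP-1 match, TGACTCA, at positions -12 to -6 from the start, and in upstream IL1RN another, TGAGTCA, at -223 to -217. The IL1B window held a C/EBP match at -215 to -208, and the IL1RN window of the secreted form held an NF-kappaB match at -97 to -88. Outside the printed bases, IL1A held another AP-1 match, TGAGTCA, at 39 to 45 after the start. The IL6 window, not printed, held an NF-kappaB match at -73 to -64 and a C/EBP match at -155 to -148 from its start at 22727200. No 2 of these matches overlapped. Motifs were searched on both strands over 300 bases a promoter and were chosen with the sequences in view. Among 35116 RefSeq promoters, TGANTCA (AP-1) was found in 7.71%, TTGCNNAA (C/EBP) in 10.5%, and an NF-kappaB pattern (GGG and TTCC with any 3 bases between) in 6.52%. The p53 family half-site, which p63 proteins also bind, was found in 6.63% of promoters. It was found in no window of the 6 members with a promoter entry. CSF1, CSF3, IL18 and LIF had no entry and were not searched. These matches are descriptions of letters and say nothing of binding.

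For every tested member but TNF, the difference between the mock lines was larger than its estimate with either construct in either line. In the mock libraries all 9 tested members differed between PANC-1 and AsPC-1, 2 higher in PANC-1 and 7 lower, where 72.5% of all tested genes differed, 44.6% higher and 27.9% lower. A share that high in the background means that the count of members is not a result about them. Besides, CSF2, CSF3, IL1A, IL1B and IL1RN passed the low-value filter only through the line where they were higher.

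**Figure D1:**
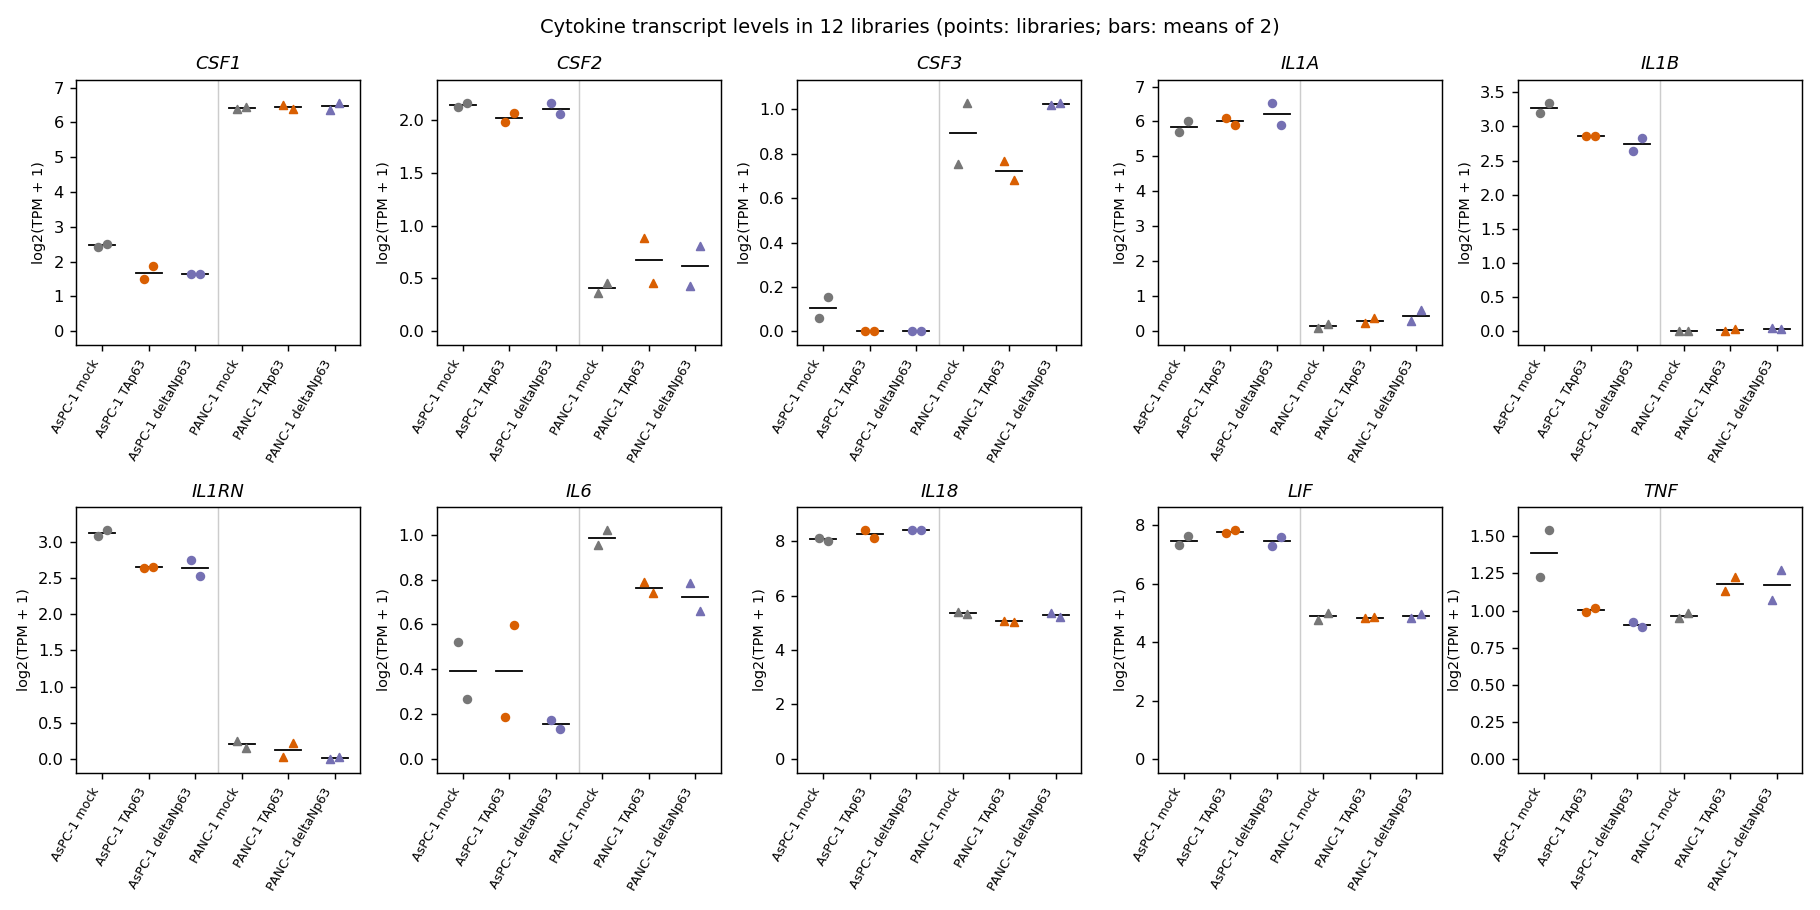
Transcript level of each of the 10 cytokine genes, as log2(TPM + 1) on the vertical axis, in the 6 groups on the horizontal axis. Points are libraries (circles AsPC-1, triangles PANC-1), bars are means of 2, and each panel has its own scale. CSF1 is high in every PANC-1 library, whereas IL1A, IL1B, IL1RN, IL18 and LIF are high in every AsPC-1 library.

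Among the colony-stimulating factors, CSF1 (ENSG00000184371, chr1:109910242-109930992, plus strand), the macrophage growth factor, marked PANC-1. It was 83.1 and 85.9 TPM in PANC-1 mock against 4.39 and 4.66 TPM in AsPC-1 mock. The difference was 3.95 log2 units (SE 0.129, limma adjusted p = 1.78e-09). CSF1 made up 53.5% to 58.4% of the summed TPM of the 10 members in PANC-1 libraries and 0.290% to 0.864% in AsPC-1 libraries. CSF2 (ENSG00000164400, chr5:132073789-132076170, plus strand), which acts on granulocytes and macrophages, ran the other way. It was 3.37 and 3.49 TPM in AsPC-1 mock and 0.283 and 0.370 TPM in PANC-1 mock, a difference of -1.74 (limma adjusted p = 8.16e-06). CSF3 (ENSG00000108342, chr17:40015361-40017813, plus strand), the neutrophil factor, was low throughout. It was 0.687 and 1.04 TPM in PANC-1 mock and 0.0413 and 0.112 TPM in AsPC-1 mock, a difference of 0.79 (limma adjusted p = 0.000548).

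The IL-1 genes were expressed in AsPC-1 and close to absent in PANC-1. IL1A was 50.5 and 63.5 TPM in AsPC-1 mock and 0.0649 and 0.150 TPM in PANC-1 mock, a difference of -5.70 (SE 0.211, limma adjusted p = 4.39e-09). IL1B was 8.12 and 9.19 TPM in AsPC-1 mock and was listed at 0 in both PANC-1 mock libraries (limma adjusted p = 4.97e-09). The antagonist IL1RN was 7.46 and 7.92 TPM against 0.191 and 0.111 TPM, a difference of -2.92 (limma adjusted p = 1.95e-08). Thus IL1A, IL1B and IL1RN were each higher in AsPC-1. They are not adjacent, and other IL-1 family genes lie between IL1B and IL1RN on chromosome 2. Of those, IL37 was 2.24 to 5.77 TPM in AsPC-1 libraries and at most 0.144 TPM in PANC-1 libraries. IL36G and IL36B reached 1.26 and 0.413 TPM in AsPC-1, and 0.0744 and 0.0484 TPM in PANC-1. IL1F10 was listed at 0 in all 12 libraries, and IL36A and IL36RN reached 0.224 and 0.177 TPM at most. Within AsPC-1 the agonists were dominated by IL1A, which held 86.2% to 94.6% of the summed IL1A and IL1B TPM over its 6 libraries.

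IL18 (ENSG00000150782, chr11:112143253-112164096, minus strand) was the most abundant member in every AsPC-1 library. It was 275 and 258 TPM in AsPC-1 mock and 41.3 and 38.8 TPM in PANC-1 mock, a difference of -2.70 (limma adjusted p = 4.46e-09). LIF (ENSG00000128342, chr22:30240453-30246759, minus strand) ranked second in AsPC-1, at 158 and 197 TPM in mock, against 26.3 and 30.7 TPM in PANC-1 mock. Its difference was -2.59 (limma adjusted p = 6.02e-08). IL18 and LIF each overlap antisense genes, and because the use of strand in counting is not given, reads of either strand cannot be told apart. TNF (ENSG00000232810, chr6:31575565-31578336, plus strand) was near 1 TPM in both lines. At 1.34 and 1.91 TPM in AsPC-1 mock and 0.930 and 0.976 TPM in PANC-1 mock, it differed by -0.42 (limma adjusted p = 0.0236), a call that was lost without AsPC-1 mock replicate 2 (-0.26, adjusted p = 0.188) and without PANC-1 mock replicate 1 or 2 (adjusted p = 0.0771 and 0.0583). In limma the call on TNF was also lost when only the groups compared were fitted (adjusted p = 0.0610) and under the replicate block (adjusted p = 0.0508).

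IL6 (ENSG00000136244, chr7:22725884-22732002, plus strand), the gp130 cytokine that induces acute-phase proteins, stayed near or below 1 TPM everywhere. It was 0.434 and 0.204 TPM in AsPC-1 mock, 0.139 and 0.514 with TAp63, and 0.128 and 0.0977 with deltaNp63. In PANC-1 it was 0.939 and 1.03 TPM in mock, 0.726 and 0.669 with TAp63, and 0.720 and 0.578 with deltaNp63. Every PANC-1 library lay above every AsPC-1 library. The canonical transcript IL6-201 was listed at 0 in all 6 AsPC-1 libraries, and IL6 overlaps antisense genes too.

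In AsPC-1, 1 tested member, CSF1, fell with TAp63, where 0.637% of all tested genes changed and 0.609% fell. CSF1 was 4.39 and 4.66 TPM in mock, 1.83 and 2.66 TPM with TAp63, and 2.14 and 2.14 TPM with deltaNp63. No library with a construct overlapped mock, as was so for 46.6% of all tested genes with TAp63 and 52.1% with deltaNp63. The fall against mock was -0.78 with TAp63 (SE 0.129, 95% interval -1.07 to -0.49, limma adjusted p = 0.0292) and -0.81 with deltaNp63 (interval -1.10 to -0.53, limma adjusted p = 0.0128). TAp63 against deltaNp63 differed by 0.03, with an interval of -0.26 to 0.32. The TAp63 call held in 6 of 19 alternative analyses, whose estimates ran from -1.01 to -0.60, and leaving out AsPC-1 mock replicate 1 or 2, AsPC-1 TAp63 replicate 1 or any PANC-1 library ended it (limma adjusted p from 0.0552 to 0.173). The deltaNp63 call held in 14 of 19, from -1.05 to -0.59, and ended without AsPC-1 mock replicate 1, AsPC-1 mock replicate 2 or AsPC-1 deltaNp63 replicate 1 (limma adjusted p 0.0738, 0.0701 and 0.0633).

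**Figure D2:**
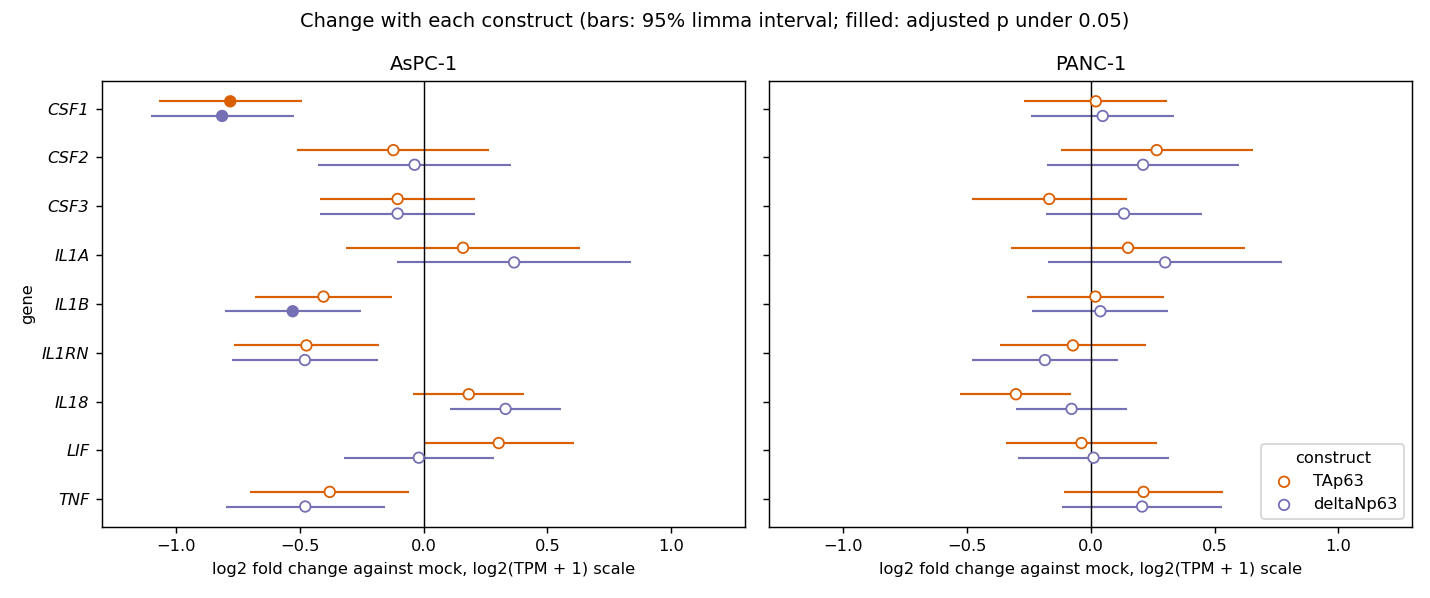
Log2 fold change of each tested cytokine gene against mock, on the log2(TPM + 1) scale, in AsPC-1 (left) and PANC-1 (right). Bars are 95% limma intervals, orange is TAp63, purple is deltaNp63, and filled points have an adjusted p under 0.05. Filled points are CSF1 with both constructs and IL1B with deltaNp63, all in AsPC-1.

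With deltaNp63, 2 tested members fell in AsPC-1, CSF1 and IL1B, where 7.14% of all tested genes changed and 6.51% fell. Both constructs were compared with the same mock libraries, so their results are not independent. IL1B, the secreted IL-1 agonist, was 8.12 and 9.19 TPM in mock, 6.28 and 6.28 TPM with TAp63, and 5.26 and 6.13 TPM with deltaNp63. Its difference from mock was -0.41 with TAp63 (SE 0.123, limma adjusted p = 0.183) and -0.53 with deltaNp63 (SE 0.123, limma adjusted p = 0.0396). Among 19 alternatives the deltaNp63 call on IL1B held in 3, with estimates from -0.62 to -0.29. The calls depend on scaling: the median of all tested genes was -0.12 in this comparison and 0.088 after median centring, where IL1B was -0.32 (limma adjusted p = 0.138). Leaving out any library but AsPC-1 deltaNp63 replicate 2 ended the IL1B call (limma adjusted p from 0.0538 to 0.209).

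IL1RN and TNF had lower values with both constructs in AsPC-1 but did not pass the test. IL1RN was 7.46 and 7.92 TPM in mock, 5.21 and 5.30 TPM with TAp63, and 5.72 and 4.78 TPM with deltaNp63. Its limma estimate was -0.47 with TAp63 (adjusted p = 0.155) and -0.48 with deltaNp63 (adjusted p = 0.0548). TNF, the NF-kappaB activating cytokine, was 1.34 and 1.91 TPM in mock, 0.989 and 1.02 TPM with TAp63, and 0.896 and 0.852 TPM with deltaNp63, with estimates of -0.38 (limma adjusted p = 0.255) and -0.48 (limma adjusted p = 0.0667). Neither gene's construct libraries overlapped mock, as was so for 46.6% of all tested genes with TAp63 and 52.1% with deltaNp63. Of 19 alternatives, the deltaNp63 estimate passed in 1 for IL1RN and in 0 for TNF. The ratio of IL1RN to summed IL1A and IL1B was 0.127 and 0.109 in mock, 0.0701 and 0.0813 with TAp63, and 0.0587 and 0.0742 with deltaNp63. That ratio of gene sums was not tested, and its groups with a construct lay below mock. Against IL1B alone, the ratio of IL1RN was 0.919 and 0.862 in mock and 0.830 and 0.844 with TAp63. It was 1.09 and 0.779 with deltaNp63, on both sides of mock, and was not tested either. The IL1RN sum includes transcripts with no annotated coding sequence.

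IL18, LIF and IL1A, the abundant members of AsPC-1, did not pass the test with either construct. IL18 was 275 and 258 TPM in mock, 334 and 273 TPM with TAp63, and 335 and 335 TPM with deltaNp63, with estimates of 0.18 (limma adjusted p = 0.428) and 0.33 (limma adjusted p = 0.0680, past the threshold in 2 of 19 alternatives). These were median centring, where IL18 with deltaNp63 was 0.54 (limma adjusted p = 0.0409), and the replicate block (limma adjusted p = 0.0470). LIF was 158 and 197 TPM in mock, 210 and 226 TPM with TAp63, and 157 and 194 TPM with deltaNp63. LIF was the member with the widest separation of the constructs, 0.32 higher with TAp63 (unadjusted p = 0.0392, limma adjusted p = 0.628). IL1A was 50.5 and 63.5 TPM in mock, 68.1 and 58.9 TPM with TAp63, and 92.1 and 58.2 TPM with deltaNp63. AsPC-1 deltaNp63 replicate 1 alone stood above the other 5 AsPC-1 libraries for IL1A, and replicates of that group differed most across all tested genes, by a median of 0.211 log2 units.

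CSF2 and CSF3 gave small estimates. CSF2 was 3.37 and 3.49 TPM in AsPC-1 mock, 2.96 and 3.18 TPM with TAp63, and 3.48 and 3.15 TPM with deltaNp63. CSF3 was listed at 0 in all 4 AsPC-1 libraries with a construct. Over the 9 tested members the median estimate was -0.12 with TAp63 and -0.11 with deltaNp63, beside -0.077 and -0.12 over all tested genes. Groups did not overlap mock for 7 of 9 members with TAp63 and 6 of 9 with deltaNp63, beside 46.6% and 52.1% of all tested genes. Both counts include CSF3, at most 0.112 TPM in AsPC-1, which passed the low-value filter only through PANC-1. No member passed the test between TAp63 and deltaNp63 in AsPC-1, where 0.0203% of tested genes did. At an unadjusted p under 0.05 that comparison held 1 member, LIF.

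In PANC-1 no member passed the limma test with either construct, where 0.00677% of tested genes passed with TAp63 and 0.0406% with deltaNp63. At an unadjusted p under 0.05 there was 1 member with TAp63, IL18, and 0 with deltaNp63. CSF1, the dominant cytokine transcript of this line, was 83.1 and 85.9 TPM in mock, 88.9 and 82.6 TPM with TAp63, and 81.2 and 94.0 TPM with deltaNp63. Its estimates were 0.02 with TAp63 (95% interval -0.27 to 0.31) and 0.05 with deltaNp63 (interval -0.24 to 0.34), and the groups overlapped. IL18 was 41.3 and 38.8 TPM in mock, 32.5 and 32.0 TPM with TAp63, and 39.8 and 36.0 TPM with deltaNp63. The IL18 estimate with TAp63 was -0.30 (unadjusted p = 0.0134, limma adjusted p = 1.0), and both TAp63 libraries lay below the other 4.

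None of the other members passed the test in PANC-1, and several were near 0. LIF stayed between 26.3 and 30.7 TPM across the 6 libraries. TNF was 0.930 and 0.976 TPM in mock, 1.19 and 1.34 TPM with TAp63, and 1.10 and 1.42 TPM with deltaNp63. CSF2 ran from 0.283 to 0.847 TPM and CSF3 from 0.602 to 1.04 TPM. IL1A reached 0.526 TPM, IL1B 0.0291 TPM and IL1RN 0.191 TPM at most. Groups did not overlap mock for 4 of 9 members with TAp63 and 4 of 9 with deltaNp63, beside 42.4% and 27.1% of all tested genes. These were CSF2, IL1A, IL18 and TNF with TAp63, and IL1A, IL1B, IL1RN and TNF with deltaNp63. In PANC-1, CSF2, IL1A, IL1B and IL1RN stayed below 1 TPM and passed the low-value filter only through AsPC-1. The counts thus rest largely on values near the floor and are not a result about the members. Between the 2 constructs no member passed, and 0.0271% of tested genes did.

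The difference in response between the lines was itself tested. No member passed for the TAp63 effect, where 0.0745% of tested genes did, or for the deltaNp63 effect, where 0.582% did. CSF1 came nearest, with the effect in PANC-1 above that in AsPC-1 by 0.80 for TAp63 (95% interval 0.39 to 1.21, limma adjusted p = 0.214) and by 0.86 for deltaNp63 (interval 0.45 to 1.27, limma adjusted p = 0.10). At an unadjusted p under 0.05 there were 4 members for each construct, CSF1, IL1B, IL18 and TNF. For CSF1, IL1B and TNF the estimate with each construct was lower in AsPC-1 than in PANC-1, and for IL18 it was higher. The fall of CSF1 in AsPC-1 is therefore not shown to be particular to that line.

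Transcript assignments described which forms of CSF1 and IL1RN were present, within the limit that the program that made them is not given. CSF1-201, coding the 554-residue form that is processed for secretion, held 66.1% to 67.5% of CSF1 TPM in PANC-1 libraries and 66.9% to 87.3% in AsPC-1 libraries. CSF1-204 codes the same number of residues but ends at 109926743 rather than 109930992. It held 21.0% to 24.3% in PANC-1 and 2.14% to 13.0% in AsPC-1, so every PANC-1 library lay above every AsPC-1 library. The AsPC-1 shares rest on CSF1-204 levels of only 0.0569 to 0.294 TPM. CSF1-205, coding the 256-residue cell-surface form, held 6.38% to 8.88% in PANC-1. In AsPC-1 its share ran from 0 to 18.2%, on levels below 1 TPM. The main transcript had the same order of groups as the gene. CSF1-201 was 2.94 and 3.80 TPM in AsPC-1 mock, 1.59 and 1.89 TPM with TAp63, and 1.69 and 1.58 TPM with deltaNp63, and these values were not tested.

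**Figure D3:**
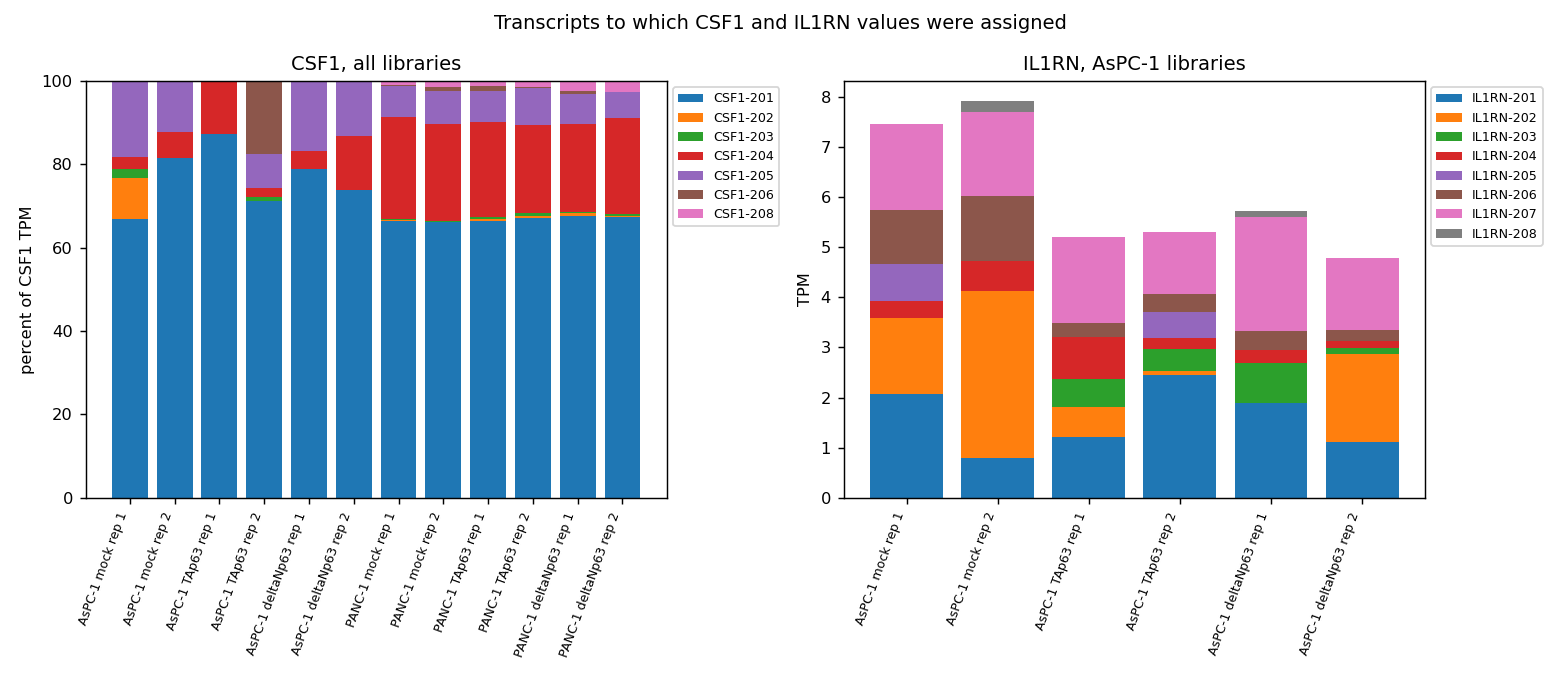
Left, share of CSF1 TPM assigned to each transcript, in percent, in all 12 libraries. Right, IL1RN TPM assigned to each transcript in the 6 AsPC-1 libraries. CSF1-204 takes a larger share in every PANC-1 library, though its AsPC-1 shares rest on levels of at most 0.294 TPM. IL1RN-205, the secreted form, is 0 in 4 of 6 AsPC-1 libraries.

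Little of the IL1RN TPM in AsPC-1 was assigned to the transcript of the secreted form. IL1RN-205, which codes the 177-residue secreted precursor, was 0.737 and 0 TPM in mock, 0 and 0.513 TPM with TAp63, and 0 in both deltaNp63 libraries. IL1RN-201 and IL1RN-202, which start just after the upstream window printed above, summed to 3.59 and 4.13 TPM in mock, 1.81 and 2.52 TPM with TAp63, and 1.89 and 2.87 TPM with deltaNp63. With IL1RN-203, which starts beside them, and IL1RN-204, which starts far before that window at chr2:113099360 and is annotated as subject to nonsense-mediated decay, the transcripts other than IL1RN-205 with a coding sequence summed to 3.93 and 4.73 TPM in mock, 3.20 and 3.19 TPM with TAp63, and 2.96 and 3.13 TPM with deltaNp63. Transcripts with no annotated coding sequence held a further 1.60 to 3.20 TPM. IL18 was assigned mainly to IL18-201, at 80.8% to 91.7% of its TPM over the 12 libraries.

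Receptors for these cytokines were listed with them: 7 of 14 receptor genes were tested. In mock libraries all 7 differed between the lines, 4 higher in PANC-1 and 3 lower, where 72.5% of all tested genes differed, so that count is not a result about receptors. LIFR, the LIF-binding chain, was 17.9 and 16.0 TPM in PANC-1 mock and 1.07 and 0.767 TPM in AsPC-1 mock, a difference of 3.23 (SE 0.149, limma adjusted p = 2.28e-08). LIF and its receptor therefore had opposite line patterns, with a LIF to LIFR ratio of 108 to 257 in AsPC-1 and 1.47 to 1.92 in PANC-1. IL1R1, the signaling IL-1 receptor, was 3.75 and 3.27 TPM in PANC-1 mock and 0 and 1.27 TPM in AsPC-1 mock (limma adjusted p = 0.00292). Its accessory chain IL1RAP went the other way, at 6.91 and 7.27 TPM in PANC-1 mock and 21.1 and 24.6 TPM in AsPC-1 mock. TNFRSF1B, the inducible TNF receptor, was 8.23 and 9.09 TPM against 29.9 and 28.6 TPM, a difference of -1.65 (limma adjusted p = 6.22e-06). The receptors of the colony-stimulating factors were near 0: CSF1R at most 0.418, CSF2RA at most 0.972, CSF2RB at most 0.0181 and CSF3R at most 0.216 TPM. The IL-18 receptor chain IL18R1 reached 0.545 TPM and IL18RAP was listed at 0 in all 12 libraries.

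**Figure D4:**
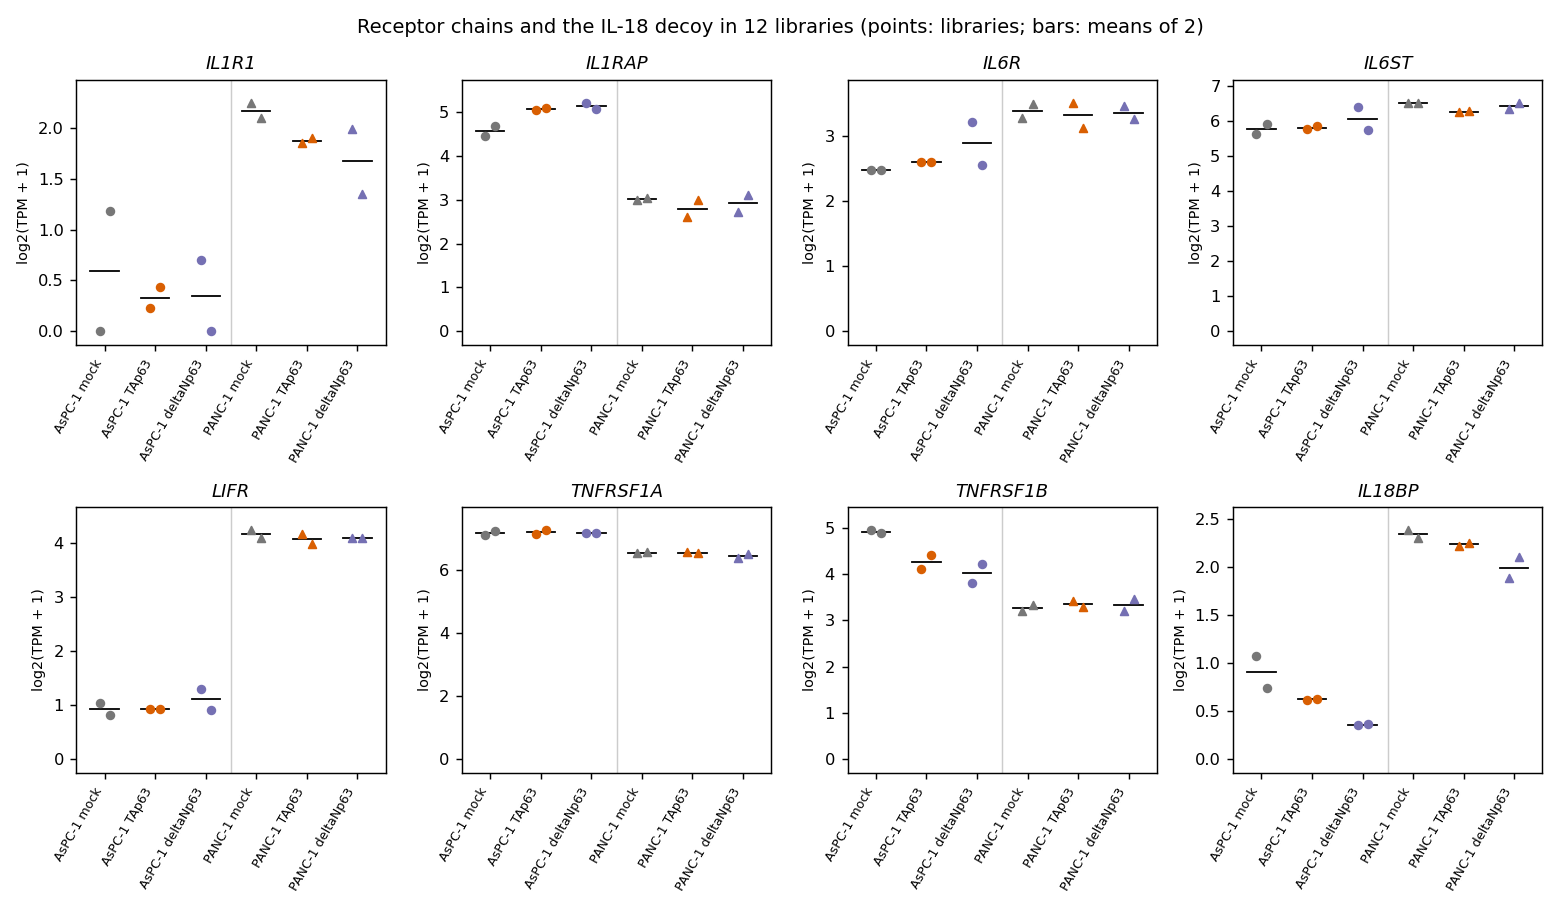
Level of 7 receptor chains and of the IL-18 decoy IL18BP, as log2(TPM + 1), in the 6 groups. Points are libraries (circles AsPC-1, triangles PANC-1) and bars are means of 2. LIFR is higher in PANC-1, and TNFRSF1B is lower in AsPC-1 with deltaNp63 than in AsPC-1 mock.

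With deltaNp63 in AsPC-1, 1 receptor fell. TNFRSF1B was 29.9 and 28.6 TPM in mock, 16.3 and 20.4 TPM with TAp63, and 13.1 and 17.6 TPM with deltaNp63. It fell by 0.90 on the log2 scale with deltaNp63 (SE 0.159, limma adjusted p = 0.0207), and its estimate with TAp63 was -0.65 (limma adjusted p = 0.120). The TNFRSF1B call held in 14 of 19 alternatives, also after median centring (-0.70, limma adjusted p = 0.0332). It ended without AsPC-1 mock replicate 1 or 2 or AsPC-1 deltaNp63 replicate 1 (limma adjusted p = 0.123, 0.0768 and 0.104). One gene each also fell with deltaNp63 in 3 other lists, in an analysis where 7.14% of all tested genes changed and 6.51% fell: TNIP1, an inhibitor of NF-kappaB signaling, by 0.63 (limma adjusted p = 0.0259); PIAS3, an inhibitor of STAT3, by 0.39 (limma adjusted p = 0.0487); and IL18BP, the soluble decoy of IL-18, by 0.55 (limma adjusted p = 0.0490). These were 1 of 26 tested IL-1 and TNF signaling genes, 1 of 11 JAK-STAT3 genes and 1 of 11 processing and decoy genes, shares near or under that background. These calls depend on the analysis: TNIP1 passed in 9 of 19 alternatives, PIAS3 in 3 and IL18BP in 3. After median centring none of them passed, at -0.42 for TNIP1, -0.19 for PIAS3 and -0.34 for IL18BP (limma adjusted p = 0.0588, 0.253 and 0.165). Without AsPC-1 mock replicate 1 or 2 or AsPC-1 deltaNp63 replicate 1 none of them passed either, and leaving out PANC-1 mock or PANC-1 TAp63 libraries ended all of these calls too. Which genes passed also moved with scaling. IL1RAP, the accessory chain of the IL-1 receptor, had an estimate of 0.57 (limma adjusted p = 0.0610) and passed as higher after median centring. CD68, listed as a leukocyte marker, fell by 0.39 (limma adjusted p = 0.0362), from 115 and 126 TPM to 91.9 and 90.8 TPM, while PTPRC was 0 in all 4 AsPC-1 libraries with a construct. The CD68 call held in 5 of 19 alternatives and was lost after median centring (-0.19, limma adjusted p = 0.203) and without any 1 of 9 libraries. Of the 22 other ligands, 11 were tested and none passed. No gene of these 5 lists passed with TAp63 in AsPC-1 or with either construct in PANC-1.

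Between the mock lines, genes of the other lists also differed, as did 72.5% of all tested genes (44.6% higher in PANC-1 and 27.9% lower), so the counts that follow are no result about the lists. Of 11 tested other ligands, 4 were higher in PANC-1 and 5 lower, led by IL11, a gp130 cytokine, 3.19 higher, LTB, a TNF family ligand, 2.35 higher, and IL37, an IL-1 family member, with a difference of -2.40. Of 11 processing and decoy genes, 6 were higher and 2 lower, led by PYCARD, the inflammasome adaptor (1.57), IL1RL1, the IL-33 receptor (1.5), and IL18BP (1.44). The ratio of IL18BP to IL18 was 0.000822 to 0.00402 in AsPC-1 and 0.0680 to 0.118 in PANC-1. Of 26 IL-1 and TNF signaling genes, 12 were higher and 4 lower, led by NFKBIB, an NF-kappaB inhibitor (2.50), TNFAIP3, a feedback inhibitor (-2.21), and IRAK3, a negative regulator of IL-1 signaling (1.69). Of 11 JAK-STAT3 genes, 8 were higher and 1 lower, led by STAT5B (2.89), SOCS2 (2.77) and PIAS3 (2.45).

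Genes whose levels followed the members that changed were named by Pearson's r over the 12 libraries, after centring each cell line on its mean, among genes with a mean of at least 5 TPM, as a description. For CSF1 these were BATF2 (r = 0.983), TRIM22 (0.978) and CHSY1 (0.975). For IL1B they were SHFL (0.977), ETV7 (0.975) and ZNF444 (0.973). IL1B was 0 to 0.0291 TPM in PANC-1, so its values of r rest on the 6 AsPC-1 libraries. CSF1 ran only from 81.2 to 94.0 TPM in PANC-1, against 1.83 to 4.66 TPM in AsPC-1. Its values of r therefore rest mostly on the AsPC-1 libraries as well, where its fall had selected it. All libraries of a line share its constructs and mock, so these values carry no p.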

How the data were processed

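The authors deposited TPM values for 153329 Ensembl transcripts in the 12 libraries, made with a stranded poly(A) kit per the labels' protocols. The aligner, quantifier, genome build and annotation are not given in the sources used here. TPM keeps no depth, so precision rests on the replicates. Transcripts were paired with genes through GENCODE v44 (hg38), which matched 139819 rows (91.2%) and 89.6% to 90.5% of a library's TPM, and summed to 39099 genes. The 14767 genes that reached 1 TPM in 2 or more libraries were put on a log2(TPM + 1) scale (pseudocount 1) and fitted in a model with a mean for each of 6 groups (limma 3.58.1 with trend, R 4.3.3, 6 residual degrees of freedom). Two-sided p-values were adjusted by the Benjamini-Hochberg method over all tested genes within each of 9 comparisons, with a threshold of 0.05. The fit was tested on simulated data.

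The 10 members, the pathway lists and the marker lists were chosen with earlier results of these data known. All members were named. Of each pathway list, up to 3 genes past the threshold with groups that did not overlap were named in each comparison, by size. CD68, receptors other than these, IL-1 family genes between IL1B and IL1RN, and marker levels were named after their values were seen. Alternatives were limma without trend, quantile normalization, median centring, no low-value filter, a pseudocount of 0.1, only the groups compared, a replicate block, and leaving out each library in turn. Running them on pathway and marker genes that passed against mock was chosen after seeing the data.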

Additional observations from a re-analysis of the deposited data

How the results depend on the processing

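Each of 9 counts of members was recomputed under 7 other settings and 12 omissions of a library. For AsPC-1 TAp63 against mock, the count of 1 became 0 under quantile normalization, median centring, no low-value filter and only the groups compared, and was 0 to 1 with a library left out. For AsPC-1 deltaNp63 against mock, the count of 2 became 0 under quantile normalization and only the groups compared, 1 with no filter or a pseudocount of 0.1, and 0 to 3 with a library left out. Limma without trend and the replicate block each gave 3 there. After median centring it was 2 again but with other genes, CSF1 lower (-0.61, limma adjusted p = 0.0339) and IL18 higher (0.54, 0.0409), and IL1B did not pass. The count for the deltaNp63 effect between lines ran from 0 to 2 with a library left out, and that for the mock lines from 8 to 9; the latter was 10 with no filter, where IL6 entered, and 8 under the replicate block or with only the groups compared. The other 5 counts stayed at 0 in each setting and omission run. No named fold change in these tables reversed where it had passed. Under the replicate block CSF1 was -0.78 with TAp63 (limma adjusted p = 0.0483), -0.81 with deltaNp63, and IL1B was -0.53 (0.0407). The labels share replicate numbers, and the deviations of same-numbered libraries correlated between -0.094 and 0.293, so the numbers were not taken to pair samples.

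Over all tested genes, the AsPC-1 deltaNp63 count was 1055 (94 higher, 961 lower), 419 after median centring (249 and 170), 199 after quantile normalization (51 and 148), 225 with no filter, 1633 with the replicate block, 0 with only the groups compared, and 98 to 4057 with a library left out. The AsPC-1 TAp63 count was 94, 0 with only the groups compared and 42 to 412 with a library left out. With a main count first, then the lowest and highest over the other settings and over omitted libraries, AsPC-1 TAp63 against deltaNp63 gave 3, 0 to 18 and 0 to 1025. PANC-1 TAp63 gave 1, 1 to 49 and 1 to 6, PANC-1 deltaNp63 6, 1 to 42 and 2 to 8, and PANC-1 TAp63 against deltaNp63 4, 0 to 33 and 0 to 3. The TAp63 effect gave 11, 0 to 37 and 0 to 49, and the deltaNp63 effect 86, 49 to 96 and 44 to 2196. The cause of these shifts was not tested. Depth is unknown, so the counting error of values near or below 1 TPM, such as those of IL6, CSF3, TNF and the PANC-1 IL-1 genes, is unknown too.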
